A study of Mus musculus with 43 samples.

Results

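The methyl-CpG-binding domain genes Mbd1, Mbd2, Mbd3, Mbd4, Mbd5 and Mbd6 were followed through the reprogramming of mouse embryonic fibroblasts (MEF) to induced pluripotent stem cells (iPSC). The 6 genes were taken by their symbols from the 38983 genes that the 5 deposited expression tables share. All 6 were present in every table, and none was listed at 0 in any of the 43 poly(A) RNA-seq libraries. Mbd1 (ENSMUSG00000024561) and Mbd2 (ENSMUSG00000024513) lie on chromosome 18, Mbd3 (ENSMUSG00000035478) and Mbd6 (ENSMUSG00000025409) on chromosome 10, Mbd4 (ENSMUSG00000030322) on chromosome 6 and Mbd5 (ENSMUSG00000036792) on chromosome 2 of the GRCm38 build.

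Methylation of cytosines in CpG pairs marks much of the silent mammalian genome, and proteins with a methyl-CpG-binding domain are one of the ways in which cells read that mark. Mbd1 recruits histone methyltransferase activity to methylated DNA. Mbd2 and Mbd3 are alternative subunits of the NuRD complex, which joins nucleosome remodelling to histone deacetylation, and a given NuRD complex holds one of them and not both. Mammalian Mbd3 binds methylated CpG poorly. Mbd4 is a DNA glycosylase that removes thymine or uracil paired with guanine, the products of deamination at CpG sites. Mbd5 and Mbd6 do not bind methylated DNA in spite of their domain and associate with the PR-DUB complex, which removes ubiquitin from histone H2A. NuRD has been studied as a barrier to reprogramming, which is the question behind the cell lines used here.

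The 34 course libraries came from 4 cell systems, each carrying a doxycycline-inducible cassette of Oct4, Klf4, Sox2 and Myc (OKSM). The 2 systems called depleted here are so called from their labelled genotypes: Mbd3f/- cells, with 1 floxed and 1 disrupted Mbd3 allele, gave 11 libraries, and Gatad2a-/- cells, labelled as lacking another NuRD subunit, gave 10. The wild-type systems WT-1 and WT-2 gave 7 and 6 libraries, and WT-2 is isogenic to Gatad2a-/-. MEF were induced with doxycycline in serum medium with LIF at low oxygen, and medium with serum replacement, LIF and inhibitors of MEK and GSK3 followed. Irradiated human foreskin fibroblasts served as feeder cells for days 3 to 8, the established iPSC and the embryonic stem (ES) cells, so that feeder, medium and time are not separable. The depleted systems were sampled as MEF, on each day from 1 to 8 and as iPSC, and the WT systems as MEF, on days 2, 4, 6 and 8 and as iPSC. ES cells were Mbd3f/- or WT V6.5, each in 1 library. The other 9 libraries, from cells with altered Myc or their controls, are described last.

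All levels are FPKM, counts of sequenced fragments scaled by transcript length and by the mapped fragments of the library, so levels of different genes within a library can be compared. Each system has its own table, and the tables differed in scale: the Gatad2a-/- libraries had 15485 to 16896 genes at 1 FPKM or more, against 12321 to 13161 in WT-1 and 13197 to 13983 in WT-2. Changes were therefore taken within a system, or as ratios within a library. The scale also moved within Gatad2a-/-, whose summed FPKM of all genes ran from 1.49e+06 on day 1 to 1.00e+07 on day 6. Each stage of a system is 1 library, and the n given with a test is the number of systems. The limma fits took their spread from single libraries, so averaged days of 1 course counted as separate libraries. Gatad2a itself was listed at 8.59 to 14.7 FPKM in Gatad2a-/- libraries and at 9.17 to 38.5 FPKM in WT-2 libraries. By stage, Gatad2a-/- had 10.2 FPKM in MEF, 14.7 at day 8 and 13.4 in iPSC. WT-2 had 10.5, 9.17 and 38.5 FPKM at the same stages. Before iPSC, Gatad2a was thus not lower throughout in the labelled genotype. Whether the deposited values count the disrupted part of the gene is not known. Mbd3 in Mbd3f/- lay below both WT systems in MEF (37.5 FPKM, against 79.4 in WT-1 and 53.0 in WT-2), on days 4, 6 and 8 and in iPSC, but above them on day 2 (81.1 FPKM, against 75.3 in WT-1 and 68.2 in WT-2). Its level on that day goes against a lower Mbd3 in the labelled genotype, and these levels are set across separate tables. The 6 fibroblast markers summed to 16.4 to 133 FPKM in iPSC and to 5056 to 8707 FPKM in MEF. The 6 pluripotency markers summed to 2550 to 4676 FPKM in iPSC and to 0.463 to 3.72 FPKM in MEF.

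Promoters of 4 of the 6 genes are held in the RefSeq table used here, as windows upstream of an annotated start on GRCm38.p6, and Mbd1 and Mbd2 are named only. Mbd3 is the gene disrupted in the Mbd3f/- cells. Mbd4 was called for a difference between depleted and WT systems in its day 8 change, by a test that 16.1% of all genes passed. That call held in 8 of 13 alternatives. The 250 bases before the start of Mbd3 and of Mbd4 are given from 5′ to 3′ on the strand of the gene with CpG pairs in capitals. The first window is chr10:80399532-80399781 and the second is chr6:115853342-115853591, both on the minus strand.
Mbd3: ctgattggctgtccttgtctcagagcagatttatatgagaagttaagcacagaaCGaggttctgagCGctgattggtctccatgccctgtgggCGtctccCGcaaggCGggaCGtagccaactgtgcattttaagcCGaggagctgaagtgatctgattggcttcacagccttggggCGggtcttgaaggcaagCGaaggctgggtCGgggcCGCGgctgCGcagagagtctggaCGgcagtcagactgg
Mbd4: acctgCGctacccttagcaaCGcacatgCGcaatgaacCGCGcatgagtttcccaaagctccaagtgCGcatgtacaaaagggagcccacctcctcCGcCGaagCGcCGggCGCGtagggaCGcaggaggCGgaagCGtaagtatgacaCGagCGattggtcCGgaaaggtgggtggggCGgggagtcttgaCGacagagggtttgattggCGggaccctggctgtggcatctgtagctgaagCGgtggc
The Mbd3 window held 14 CpG pairs and the Mbd4 window 22. Over the 32851 promoter windows of this length in the table, the median was 6 CpG pairs, with quartiles of 2 and 16. The Mbd3 count exceeded that of 70.6% of these windows and the Mbd4 count that of 85.2%. The sequence CACGTG, an E-box that Myc can bind, was searched for on both strands, which read the same for this palindrome. It was found in 1 of the 6 member windows, one of the 2 windows of Mbd5, and in 6.02% of all windows. A match is a run of letters and no evidence of binding.

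Mbd3 and Mbd2 were the 2 most abundant members in 40 of 43 libraries. The exceptions were Gatad2a-/- day 6, Gatad2a-/- iPSC and WT-2 iPSC, where Mbd2 lay below at least one other member beside Mbd3. Mbd3 had the highest FPKM of the 6 in 33 of 43 libraries, and Mbd2 in the other 10. The 3 course libraries with Mbd2 on top were Mbd3f/- MEF, WT-2 MEF and WT-2 day 2. Over the 34 course libraries, the medians were 73.1 FPKM for Mbd3, 27.8 for Mbd2, 9.26 for Mbd6, 6.37 for Mbd1, 5.19 for Mbd5 and 4.72 for Mbd4.

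**Figure D1:**
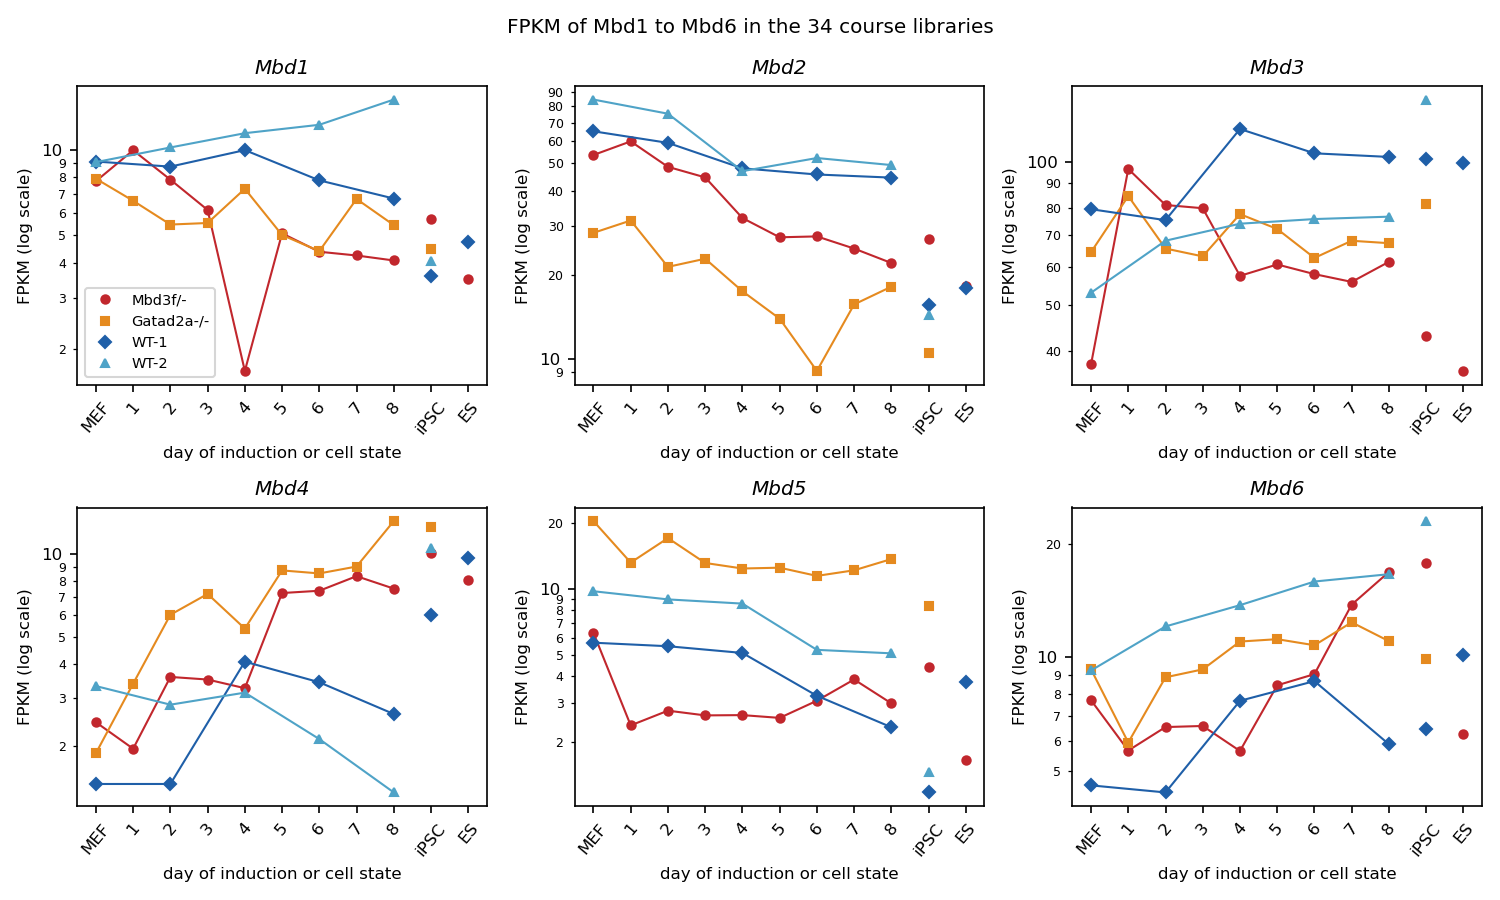
FPKM (log axis, scaled separately in each panel) of each of the 6 genes by day of induction or cell state, 1 point per library, in Mbd3f/- (11 libraries), Gatad2a-/- (10), WT-1 (7) and WT-2 (6); lines join MEF to day 8 only. Mbd2 and Mbd5 lie lower in iPSC than in MEF and Mbd4 higher in all 4 systems, and at day 8 Mbd4 stood at 7.50 and 13.2 FPKM in the depleted systems and at 2.62 and 1.36 FPKM in the WT systems.

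Across the whole path to pluripotency the family split evenly. Mbd3, Mbd4 and Mbd6 were higher in iPSC than in MEF, and Mbd1, Mbd2 and Mbd5 were lower. All 6 passed the test over the 4 systems (limma on log2(FPKM + 1), Benjamini-Hochberg adjusted p under 0.05 over 20305 genes), where 53.0% of all genes tested did. Each of the 6 also moved in 1 direction in all 4 systems, as 55.0% of all genes did. The median change of all genes was 0.14 on the log2 scale. The family's calls are to be read against these shares. The comparisons of day 8, of iPSC and of days 1 to 3 with MEF share the MEF libraries.

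Mbd2, the NuRD subunit that binds methylated CpG, had the lowest p-value of the family. It stood at 26.7 FPKM in Mbd3f/- iPSC, 10.5 in Gatad2a-/- iPSC, 15.6 in WT-1 iPSC and 14.4 in WT-2 iPSC, against 53.6, 28.2, 65.1 and 84.6 FPKM in the MEF of the same systems in that order. Mbd2 was thus lower in iPSC within each of the 4 systems. The log2 change was -1.70 ± 0.18 (SE, n = 4 systems, limma adjusted p = 4.6e-06). It held under all 13 alternative settings, with adjusted p up to 0.00324.

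Mbd3, the NuRD subunit that takes the place of Mbd2, was higher in iPSC by 1.15-fold in Mbd3f/-, 1.26-fold in Gatad2a-/-, 1.27-fold in WT-1 and 2.55-fold in WT-2. Its fitted log2 change was 0.55 ± 0.21 (SE, n = 4 systems, limma adjusted p = 0.0400). The WT-2 value stands apart from the other three. Without WT-2 the change was 0.30 (adjusted p = 0.422), without Mbd3f/- it was 0.58 (adjusted p = 0.0804) and without Gatad2a-/- 0.52 (adjusted p = 0.10). The call was also lost in 4 further alternatives.

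Since Mbd2 and Mbd3 compete for a place in NuRD, their ratio within each library was taken as well, which needs no scaling between tables. The ratio of Mbd3 to Mbd2 FPKM was 1.61 in Mbd3f/- iPSC, 7.77 in Gatad2a-/- iPSC, 6.49 in WT-1 iPSC and 9.40 in WT-2 iPSC. In MEF it was 0.699 in Mbd3f/-, 2.28 in Gatad2a-/-, 1.22 in WT-1 and 0.626 in WT-2. The ratio was higher in iPSC in 4 of 4 systems, although the iPSC value of Mbd3f/- lay below the MEF value of Gatad2a-/-, so the groups overlapped. The mean change in the log2 ratio was 2.32 ± 1.17 (SD, n = 4 systems, 2-sided exact sign-flip permutation p = 0.13, the smallest that 4 systems allow).

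The ratio had already moved by day 8. It was then 2.79 in Mbd3f/-, 3.72 in Gatad2a-/-, 2.30 in WT-1 and 1.55 in WT-2. Mbd3f/- was the one system whose ratio was lower in iPSC than at day 8. Its 2 pluripotent libraries, iPSC at 1.61 and ES at 1.99, lay below the 4 pluripotent libraries of the other systems, which ran from 5.52 to 9.40. Those 4 had 10.5 to 18 FPKM of Mbd2 and 81.3 to 135 FPKM of Mbd3, whereas the Mbd3f/- pair had 26.7 and 18.2 FPKM of Mbd2 and 43.1 and 36.3 FPKM of Mbd3. This is a description of 6 libraries, and no test was made of it. Whether the deposited Mbd3 values of Mbd3f/- count the disrupted part of the gene is not known. Mbd3 made up 62.8 ± 16.0% of the summed FPKM of the 6 genes in iPSC and 40.2 ± 9.52% in MEF (SD, n = 4 systems, exact sign-flip p = 0.13).

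**Figure D2:**
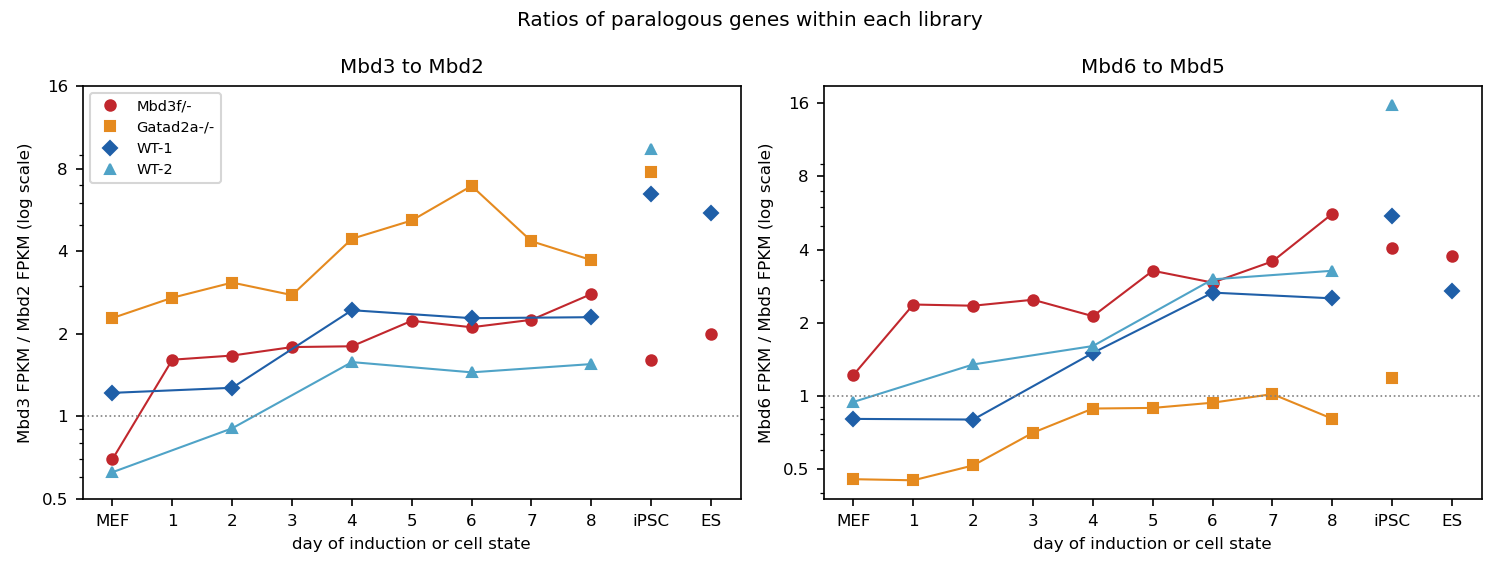
Ratio of Mbd3 to Mbd2 FPKM (left) and of Mbd6 to Mbd5 FPKM (right) within each course library, on log axes, by day of induction or cell state; 1 point per library, the dotted line marks equal FPKM, and lines join MEF to day 8. The Mbd3 to Mbd2 ratio is above its MEF value at day 8 and in iPSC in all 4 systems, and the Mbd3f/- iPSC (1.61) and ES (1.99) points lie below the other pluripotent libraries.

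Mbd4, the glycosylase, was the member that rose most. It had 10.2 FPKM in Mbd3f/- iPSC, 12.5 in Gatad2a-/- iPSC, 6.04 in WT-1 iPSC and 10.6 in WT-2 iPSC. The MEF of the same systems had 2.45, 1.89, 1.46 and 3.32 FPKM, so Mbd4 was higher in iPSC within each system. The log2 change was 1.72 ± 0.27 (SE, n = 4 systems, limma adjusted p = 0.00012), a rise of 3.19-fold to 6.63-fold by system, and all 13 alternatives kept the call. A noncoding gene on the opposite strand, Gm44206, overlaps Mbd4 over 1829 bases. This overlap is of whole gene spans. The library kit does not mark strand, so strand cannot assign the reads that fall within it.

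Mbd5 and Mbd6, the pair that associates with PR-DUB, moved in opposite directions. Mbd5 stood at 4.38 FPKM in Mbd3f/- iPSC, 8.37 in Gatad2a-/- iPSC, 1.17 in WT-1 iPSC and 1.46 in WT-2 iPSC, against 6.31, 20.5, 5.69 and 9.78 FPKM in the matching MEF. Its log2 change was -1.35 ± 0.21 (SE, n = 4 systems, limma adjusted p = 0.000114), and leaving out the system block ended the call (adjusted p = 0.113). The Gatad2a-/- libraries held the highest Mbd5 level at every shared stage, and their iPSC value exceeded the MEF value of Mbd3f/- and of WT-1.

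Mbd6 stood at 17.8 FPKM in Mbd3f/- iPSC, 9.90 in Gatad2a-/- iPSC, 6.46 in WT-1 iPSC and 23.0 in WT-2 iPSC, against 7.70, 9.30, 4.57 and 9.23 FPKM in the matching MEF. The rise was 1.06-fold in Gatad2a-/- and 2.49-fold in WT-2, and the groups overlapped. The log2 change was 0.71 ± 0.25 (SE, n = 4 systems, limma adjusted p = 0.0276), and 5 of 13 alternatives lost the call, among them those without Mbd3f/- (0.45, adjusted p = 0.129), WT-1 (0.91, adjusted p = 0.06) and WT-2 (0.51, adjusted p = 0.304). Within libraries the ratio of Mbd6 to Mbd5 was 4.07 in Mbd3f/- iPSC, 1.18 in Gatad2a-/- iPSC, 5.50 in WT-1 iPSC and 15.8 in WT-2 iPSC. In MEF it was 1.22, 0.454, 0.804 and 0.944 in the same order of systems. On the opposite strand, Orc4 overlaps Mbd5 over 770 bases and Gm20492 overlaps Mbd6 over 505 bases, both with the limit given for Mbd4. Gm13510 and Gm13509 overlap Mbd5 on its own strand.

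Mbd1 had 5.68 FPKM in Mbd3f/- iPSC, 4.47 in Gatad2a-/- iPSC, 3.59 in WT-1 iPSC and 4.07 in WT-2 iPSC, against 7.74, 7.90, 9.07 and 9.03 FPKM in the matching MEF. The iPSC level was below the MEF level within each system. Its log2 change of -0.80 ± 0.29 (SE, n = 4 systems, limma adjusted p = 0.0301) passed the test, and 4 of 13 alternatives lost the call, among them those without WT-1 (adjusted p = 0.164) and WT-2 (adjusted p = 0.141).

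**Figure D3:**
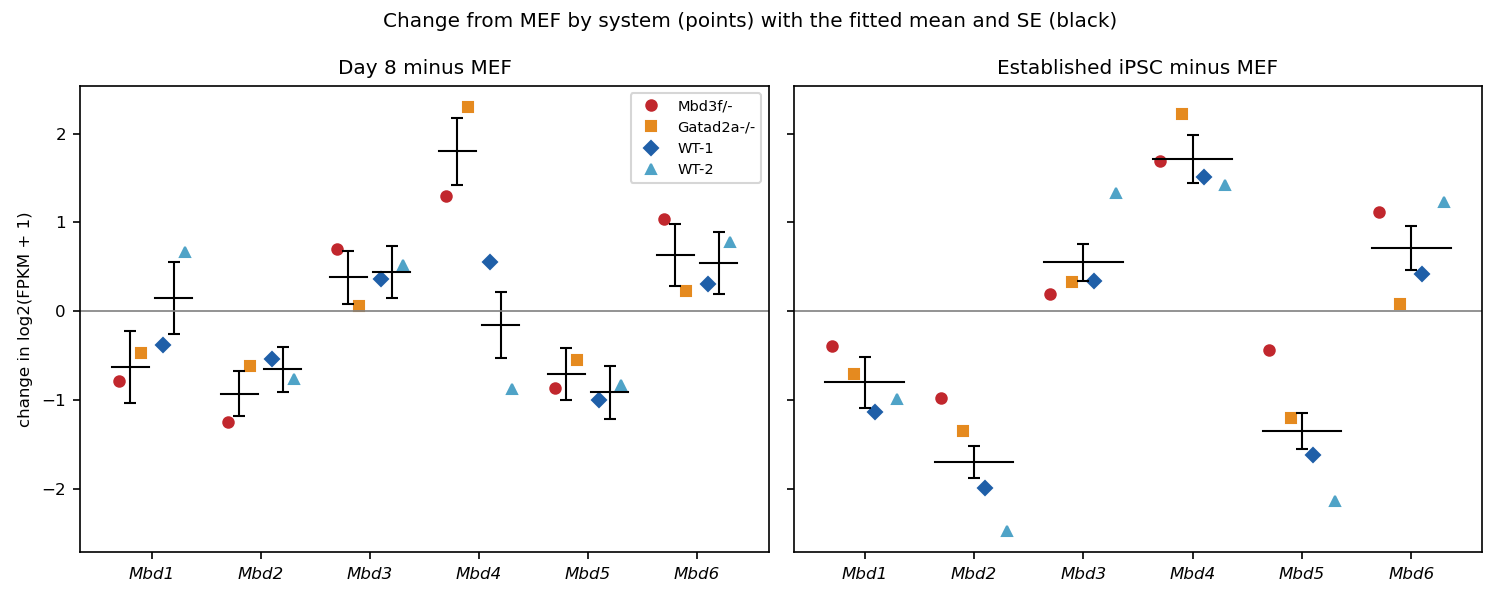
Change in log2(FPKM + 1) from the MEF of the same system to day 8 (left) and to established iPSC (right) for each gene; points are systems, and black bars are the mean fitted by limma with its SE, drawn separately for depleted and WT systems at day 8. All 4 systems share a direction for every gene in iPSC, whereas at day 8 the Mbd4 points lie at 1.30 and 2.30 in the depleted systems and at 0.56 and -0.87 in the WT systems.

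At day 8 the depleted and WT systems could be compared. In depleted systems 2 of the 6 genes differed from MEF (limma adjusted p under 0.05), Mbd4 higher and Mbd2 lower, where 34.3% of all genes passed. In WT systems 0 of 6 passed by limma, against 1.16% of all genes, with 2 members under an unadjusted p of 0.05 (Mbd2 and Mbd5). The 6 pluripotency markers summed to 3476 FPKM at day 8 in Mbd3f/-, 2221 in Gatad2a-/-, 141 in WT-1 and 1.84 in WT-2. The 6 fibroblast markers summed to 28.5, 142, 4161 and 7718 FPKM at day 8 in the same order. In bulk RNA, fewer cells of a type and less RNA per cell cannot be told apart.

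At day 8, 1 of 6 members, Mbd4, had a change from MEF that differed between the classes by limma, where 16.1% of all genes did. The call held in 8 of 13 alternatives. In Mbd3f/- it ran at 2.45 FPKM in MEF, 1.96, 3.58, 3.50, 3.26, 7.23, 7.37 and 8.33 FPKM on days 1 to 7 and 7.50 FPKM on day 8. In Gatad2a-/- it ran at 1.89 FPKM in MEF, 3.39, 6.03, 7.18, 5.37, 8.74, 8.52 and 9.03 FPKM on days 1 to 7 and 13.2 FPKM on day 8. Both depleted courses were above their MEF level from day 2 on.

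The WT courses ended lower. WT-1 had 1.46 FPKM of Mbd4 in MEF and 1.46, 4.07, 3.42 and 2.62 FPKM on days 2, 4, 6 and 8. WT-2 had 3.32 FPKM in MEF and 2.84, 3.14, 2.13 and 1.36 FPKM on those days. In WT-1 the day 4 level was the highest before iPSC, and in WT-2 every induced day lay below MEF.

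The log2 change of Mbd4 at day 8 was 1.80 ± 0.38 (SE, n = 2 systems, limma adjusted p = 0.00256) in depleted systems and -0.16 ± 0.38 (SE, n = 2 systems, adjusted p = 1) in WT systems. Without Gatad2a-/- the depleted change was 1.30 (adjusted p = 0.154). The difference of these changes was 1.96 ± 0.53 (SE, 2 against 2 systems, limma adjusted p = 0.0242), where 16.1% of all genes passed. It was lost without the system block, with only the stages compared, and without Mbd3f/-, Gatad2a-/- or WT-2, with adjusted p from 0.00623 to 0.249 over all alternatives. The difference was 2.45 without Mbd3f/- (adjusted p = 0.0781), 1.46 without Gatad2a-/- (adjusted p = 0.236) and 1.24 without WT-2 (adjusted p = 0.249). WT-2 libraries from MEF to day 8 also carried macrophage markers, whose sum of 6 genes was 4966 FPKM at day 8 and 4620 FPKM in MEF, all 6 at 1 FPKM or more, against 52.9 FPKM at day 8 and 9.56 FPKM in MEF in WT-1. In the depleted systems the same sum was 77.3 FPKM at day 8 and 1183 FPKM in MEF in Mbd3f/-, and 80.5 FPKM at day 8 and 250 FPKM in MEF in Gatad2a-/-, with all 6 genes at 1 FPKM or more in both MEF and 2 of 6 at day 8. Their part in the Mbd4 result was not tested.

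Mbd2 stood at 0.41-fold of MEF at day 8 in Mbd3f/- and at 0.64-fold in Gatad2a-/-, with a log2 change of -0.93 ± 0.25 (SE, n = 2 systems, limma adjusted p = 0.0120) that was not called without Mbd3f/- (adjusted p = 0.0602). In WT systems it stood at 0.68-fold and 0.58-fold of MEF, with a log2 change of -0.65 ± 0.25 that missed the threshold (limma adjusted p = 0.232). The difference between the classes was -0.28 ± 0.36 on the log2 scale (adjusted p = 0.631), so a class difference in Mbd2 was not shown. The other 4 genes also had no class difference past the threshold at day 8, with differences from -0.77 for Mbd1 to 0.21 for Mbd5.

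From day 8 to iPSC, the WT systems had calls for members that were not called at day 8 against MEF. A missing call at day 8 is not a missing change. By then WT Mbd5 had changed by -0.91 ± 0.29 (SE, n = 2 systems, limma adjusted p = 0.153), to 0.41-fold of MEF in WT-1 and 0.52-fold in WT-2. Mbd4 and Mbd1 had fitted WT changes of -0.16 ± 0.38 and 0.14 ± 0.40 at day 8. In WT iPSC against WT day 8, Mbd4 rose by 1.63 ± 0.38, and Mbd2, Mbd1 and Mbd5 fell by 1.58 ± 0.25, 1.20 ± 0.40 and 0.96 ± 0.29 in log2(FPKM + 1), each ± its SE over 2 systems (limma adjusted p = 0.00459, 0.000373, 0.0335 and 0.0211 in that order). That is 4 of 6 members, where 35.3% of all genes passed. Without WT-2 none of the 4 remained past the threshold (adjusted p from 0.0738 for Mbd2 to 0.642 for Mbd1), and without WT-1 neither Mbd1 (0.0972) nor Mbd5 (0.084) did. Mbd2 stood at 15.6 and 14.4 FPKM in WT-1 and WT-2 iPSC, against 44.5 and 49.3 FPKM at day 8. In WT-2, Mbd1 was 4.07 FPKM in iPSC, against 15.0 FPKM at day 8, so its level in that course was highest on the last induced day.

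The size of the iPSC change from MEF did not differ between the classes past the threshold for any of the 6 genes by limma (0 of 6, where 0.310% of all genes passed), with 2 members under an unadjusted p of 0.05. These were Mbd2, with a depleted minus WT difference of 1.07 ± 0.36 (SE, adjusted p = 0.293), and Mbd5, with 1.06 ± 0.41 (adjusted p = 0.383). Both were positive, and each gene's change was negative in all 4 systems. The corresponding difference of Mbd3 was -0.58 ± 0.42 (adjusted p = 0.628).

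The depleted systems were sampled daily. Marker sums of other cell types moved in the same days. In Mbd3f/- the 6 keratinocyte markers summed to 8.39 FPKM in MEF, reached 97.6 FPKM on day 1 and 233 FPKM on day 5, and stood at 10.4 FPKM by day 8. Gatad2a-/- had sums of 18.4 FPKM in MEF, 27.1 FPKM on day 1, 232 FPKM on day 4 and 24.5 FPKM on day 8. Few of the 6 genes carried these sums. In Mbd3f/- 3 of 6 were at 1 FPKM or more on day 1 and 2 of 6 on day 5, and in Gatad2a-/- 3 of 6 on day 4. The macrophage markers summed to 598 and 350 FPKM on day 1 in Mbd3f/- and Gatad2a-/- and to 37.5 to 60.4 FPKM on days 4 to 6. Whether cells of these types were present, and their part in the changes given next, was not tested.

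On days 1 to 3, 3 of 6 genes differed from MEF (limma adjusted p under 0.05), where 33.8% of all genes did. They were Mbd3 by 0.65 ± 0.23 (limma adjusted p = 0.0474), Mbd4 by 0.66 ± 0.22 (adjusted p = 0.0336) and Mbd5 by -0.75 ± 0.24 (adjusted p = 0.0319). Each is a log2 change with its SE from daily libraries of 2 systems, and the days entered as separate libraries. Of 9 alternatives that gave a test, the Mbd3 call was lost in 7, the Mbd4 call in 4 and the Mbd5 call in 1. The Mbd3 change lay mainly in Mbd3f/-, with log2 changes from MEF of 1.34, 1.09 and 1.07 on days 1, 2 and 3. In Gatad2a-/- those changes were 0.39, 0.02 and -0.03. Mbd5 in Mbd3f/- was 2.38 FPKM on day 1 and 6.31 FPKM in MEF, and it stayed between 2.38 and 3.86 FPKM to day 8.

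Mbd2 fell later. On days 1 to 3 it was at 60.0, 48.6 and 44.6 FPKM in Mbd3f/- and at 31.3, 21.3 and 22.8 FPKM in Gatad2a-/-, with no call against MEF (adjusted p = 0.691). On days 4 to 6 it was at 31.9, 27.2 and 27.4 FPKM in Mbd3f/- and at 17.5, 13.9 and 9.06 FPKM in Gatad2a-/-. Within each system, every library of days 4 to 6 lay below every library of days 1 to 3.

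Days 4 to 6 against days 1 to 3 gave a log2 change of -0.84 ± 0.14 for Mbd2 (SE, daily libraries of 2 systems, limma adjusted p = 0.0013) and of 0.58 ± 0.15 for Mbd4 (adjusted p = 0.0181). These are 2 of 6 members, where 20.3% of all genes passed. Successive days of 1 course entered the fit as separate libraries, so these p-values may be too small. The day 6 library of Gatad2a-/- has the lowest Mbd2 level of that system and the highest summed FPKM over all genes of the 34 libraries, and without it both calls held. Days 7 to 8 against days 4 to 6, and iPSC against days 7 to 8, gave 0 of 6 calls by limma, where 15.2% and 1.97% of all genes passed. At an unadjusted p of 0.05, 2 members passed in the first of these and 0 in the second.

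ES libraries came from Mbd3f/- and WT-1. The limma fit set them against the mean iPSC level of their class, with the system as a block. That mean also holds the Gatad2a-/- and WT-2 iPSC, so the fit is not a difference within a system. By limma 0 of 6 members passed, where 0 of 20410 genes did, and 515 genes and 0 members were under an unadjusted p of 0.05. Mbd6 was at 6.25 FPKM in Mbd3f/- ES and 17.8 FPKM in Mbd3f/- iPSC, but at 10.1 FPKM in WT-1 ES and 6.46 FPKM in WT-1 iPSC. Mbd5 showed the same kind of disagreement, at 1.66 FPKM in ES and 4.38 FPKM in iPSC for Mbd3f/-, and at 3.75 FPKM in ES and 1.17 FPKM in iPSC for WT-1. Within a system Mbd3 differed least, at 0.84-fold in Mbd3f/- and 0.98-fold in WT-1. Its fitted log2 change, -0.45 ± 0.26 (SE), was nevertheless the largest of the 6 in size.

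The likeness between genes was taken as Pearson's r of log2(FPKM + 1), centred within each course table, over the 34 course libraries. It is a description over libraries that share a table, a scale and a time course. Within the family, Mbd2 ran against Mbd4 (r = -0.812) and with Mbd1 (r = 0.736) and Mbd5 (r = 0.692), whereas Mbd2 and Mbd3 were close to unrelated (r = -0.147). Mbd5 and Mbd6 had r = -0.162. Among 12158 genes, those most like Mbd2 were Mbnl1 (r = 0.956), Mef2a (r = 0.951) and Tmem30a (r = 0.951). Those most like Mbd4 were Ccdc14 (r = 0.959), Mdm1 (r = 0.952) and Helb (r = 0.951).

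The best match of Mbd3 had a lower r. Wbscr16 (r = 0.864) was followed by Rpl28 (r = 0.863) and Rpl35 (r = 0.851), which encode proteins of the large ribosomal subunit. For Mbd1 the closest was Chpf2 (r = 0.911), for Mbd5 the entry written as ATF7 (r = 0.919), and for Mbd6 Zfp219 (r = 0.882).

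The partners of the family were counted in the same fit of iPSC against MEF (limma adjusted p under 0.05; 29.0% of all genes higher and 23.9% lower). Of 13 other NuRD genes, 8 were higher, 1 was lower and 4 did not pass, and the median log2 change was 0.44. Hdac1, a deacetylase of the complex, rose by 1.82 ± 0.20 and Rbbp4, a histone-binding subunit, by 1.58 ± 0.15, while the remodeller Chd3 fell by 2.87 ± 0.31. The other remodeller Chd4 had a change of 0.13 ± 0.18 that did not pass.

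Of 13 other glycosylases and partners of Mbd4, 8 were higher, 1 was lower and 4 did not pass, with a median log2 change of 1.02. Ung, the uracil glycosylase, rose by 3.97 ± 0.35 and Apex1, the endonuclease that acts after it, by 2.57 ± 0.38. Mpg, the alkyladenine glycosylase, fell by 0.44 ± 0.15. Of 8 tested PR-DUB genes, 4 were higher and 1 lower (median 0.41): Hcfc1 rose by 1.11 ± 0.18 and Asxl2 by 0.70 ± 0.18, and Foxk1 fell by 1.08 ± 0.18. Of 6 partners of Mbd1, 4 were higher and 0 lower (median 1.27), among them Atf7ip2 at 2.43 ± 0.27 and the chromatin assembly subunit Chaf1a at 2.31 ± 0.33.

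Of 10 other readers of CpG methylation and proteins with an MBD-like domain, 3 were higher, 3 were lower and 4 did not pass, with a median of 0.08. Uhrf1, which reads hemimethylated DNA for maintenance methylation, rose by 3.58 ± 0.42, and the zinc finger reader Zbtb4 fell by 2.66 ± 0.19.

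The family was also read in 9 libraries in which Myc was altered or which were set against those. Of these, 3 came from Mbd3f/- cells at day 4 and are labelled as over-expressing OSK with Myc, OSK alone or Myc alone, where OSK stands for Oct4, Sox2 and Klf4. The other 6 came from Mbd3f/- OSK2nd cells, secondary MEF made from Mbd3flox/- chimeric MEF that had been infected with an inducible OKS-mCherry cassette and rtTA. These were treated with siRNA against cMyc, nMyc and lMyc (siMyc, days 3 and 7), with a Myc inhibitor (day 3) or with scrambled siRNA (si-Scramble, day 7, and 2 MEF libraries). Every condition but the si-Scramble MEF is 1 library, so no test was made, and a difference of at least 1 in log2(FPKM + 1) was used to call a gene.

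The targeted genes followed the labels in part. Myc was listed at 3.16 FPKM in the library labelled OSK with Myc, 0.51 FPKM in the library labelled Myc alone and 24.8 FPKM in the library labelled OSK alone. Whether the deposited values count a transgene is not stated. In the libraries labelled siMyc it was 11.0 FPKM at day 7, against 16.2 FPKM in si-Scramble day 7, and 29.2 FPKM at day 3, against 30.5 and 26.5 FPKM in si-Scramble MEF. Mycn was at 0.927 FPKM in the library labelled siMyc day 7, against 1.47 FPKM in si-Scramble day 7, and at 1.87 FPKM in that labelled siMyc day 3, against 5.11 and 4.43 FPKM in si-Scramble MEF. Mycl was higher in both, at 3.31 FPKM against 1.03 FPKM and at 3.93 FPKM against 1.65 and 1.29 FPKM. Myc thus goes against the labels in the over-expression libraries and Mycl in the siMyc libraries, while at day 7 both Myc and Mycn were lower under siMyc. No si-Scramble library of day 3 exists, so treatment and time since MEF are not separable in any day 3 difference given here or below. Mycn was also lower without siMyc, at 1.47 FPKM in si-Scramble day 7 against 5.11 and 4.43 FPKM in si-Scramble MEF.

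None of the 6 genes passed the fold in any of 6 differences, where between 7.29% and 26.8% of all genes did. The library labelled OSK with Myc differed from that labelled OSK alone in 26.8% of genes and from that labelled Myc alone in 12.8%. The library labelled siMyc day 7 differed from si-Scramble day 7 in 7.29%. Against si-Scramble MEF, the differences were 12.6% for si-Scramble day 7, 12.9% for the library labelled siMyc day 3 and 20.4% for the Myc inhibitor at day 3. The 2 si-Scramble MEF libraries differed from each other in 2.28%.

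**Figure D4:**
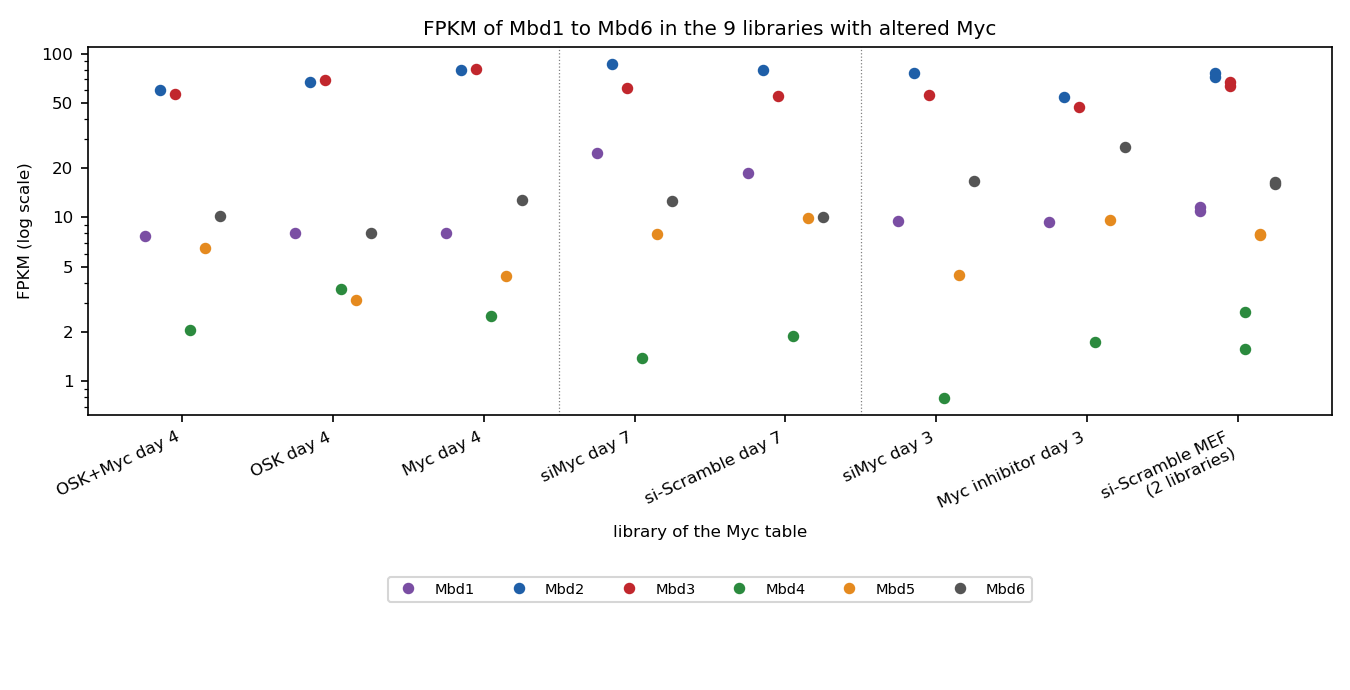
FPKM (log axis) of the 6 genes in the 9 libraries with altered Myc or serving as controls, 1 point per library and gene, with 2 libraries for si-Scramble MEF. Dotted lines part the Mbd3f/- libraries of day 4, the pair of day 7, and the day 3 libraries with their MEF. Mbd2 and Mbd3 lie above the other 4 genes in every library, and Mbd4 is lowest in all but the library labelled OSK alone.

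The nearest to the fold was Mbd5, at 6.52 FPKM in the library labelled OSK with Myc and 3.15 FPKM in that labelled OSK alone, a difference of 0.86. With a pseudocount of 0.1 or after quantile normalization it passed. Mbd4 was at 0.788 FPKM in the library labelled siMyc day 3 and at 1.57 and 2.65 FPKM in si-Scramble MEF, a difference of -0.78. It passed with a pseudocount of 0.1 (-1.27) and without si-Scramble MEF replicate 1 (-1.03). Those 2 MEF libraries differed from each other by 0.50 for Mbd4, on the same log2 scale.

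Differences near 0.7 in size followed for 3 genes. Mbd6 was at 27.0 FPKM with the Myc inhibitor at day 3 and at 15.9 and 16.5 FPKM in si-Scramble MEF, a difference of 0.70. Mbd5 was at 4.48 FPKM in the library labelled siMyc day 3 and at 7.97 and 7.77 FPKM in si-Scramble MEF, a difference of -0.69. Mbd1 was at 18.7 FPKM in si-Scramble day 7 and at 10.9 and 11.6 FPKM in si-Scramble MEF, a difference of 0.69, and at 24.9 FPKM in the library labelled siMyc day 7.

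The ratio of Mbd3 to Mbd2 was 0.686 to 1.02 in these 9 libraries, within the range of the MEF libraries of the courses and below every pluripotent library. The 6 pluripotency markers summed to at most 53.6 FPKM there, and the fibroblast markers to at least 555 FPKM. Mbd2 was highest of the family in 7 of the 9.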

How the data were processed

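FPKM per gene were deposited by the authors in 5 tables, 1 for each course system and 1 for the libraries with altered Myc and their controls. They carry Ensembl gene identifiers and symbols. Alignment tools and build are listed in the submitters' processing notes (TopHat2 2.0.10, Cufflinks 2.2.1, CASAVA 1.8.2, mm10). Neither the annotation release nor a strand setting is stated there. Whole reads were not recovered from these values, so depth is unknown and no counting interval can be given. Per the labels, the library kit was TruSeq RNA v2, which does not mark strand. Rows that repeated an identifier, 22 per table, were summed, and 0 value columns lacked a sample.

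The course libraries were fitted with limma 3.58.1 (R 4.3.3; trend and robust options) on log2(FPKM + 1). Genes with at least 1 FPKM in at least 2 libraries were kept. The model held a mean for each class and stage and the system as a block, with Benjamini-Hochberg adjustment over all genes kept and a threshold of 0.05. A log2 change on this scale understates the change of low genes. The fits used 24 libraries and 10 residual degrees of freedom (shared stages), 20 and 9 (daily depleted course), and 26 and 10 (ES). The script was tested on simulated data. No label says that libraries came from separate cultures, and p-values then reflect only how far these samples spread, which may be technical. Ratios within libraries were tested by exact sign flips over the 4 systems. Named genes are the 6 members, the 3 genes most like each of them, and the genes of each partner list with the largest calls, plus Chd4, which was chosen after its values were seen. Some genes of these lists are not reported here. The members and lists were chosen with earlier results of these data known. Gene positions are from the GENCODE annotation of GRCm38, and promoters from RefSeq. The design text gives the medium change on day 3.5, while the growth protocol gives an earlier addition of the inhibitors.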

Additional observations from a re-analysis of the deposited data

Results flagged for a closer look

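The log2 change of Mbd3 between iPSC and MEF was 1.33 in WT-2, against 0.20 in Mbd3f/-, 0.33 in Gatad2a-/- and 0.34 in WT-1. It is the 1 value that stands apart by Dixon's criterion among 14 groups examined. By chance about 1 group in 20 holds such a value, so 1 among 14 is near what chance gives. Its cause was not tested.

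The change of Mbd4 at day 8 differed between depleted and WT systems by 1.96 on the log2 scale, by a test of the difference itself. Of all genes, 16.1% passed that test, and the Mbd4 call held in 8 of 13 alternatives. The 4 systems had changes of 1.30 (Mbd3f/-), 2.30 (Gatad2a-/-), 0.56 (WT-1) and -0.87 (WT-2). The sum of 6 pluripotency markers at day 8 was 3476, 2221, 141 and 1.84 FPKM in the same order, and its part in the difference was not tested.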

How the results depend on the processing

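The precision is limited by 1 library per stage and system and by the unknown depth. The calls of Mbd2 and Mbd4 between iPSC and MEF held under all 13 alternatives. Every other member call was lost in at least 1 alternative, and the cause was not tested. Removing the day 6 library of Gatad2a-/- was an alternative chosen after seeing the data. A test without either system could not be made for the daily depleted course, nor for ES with only its own stages, since no residual degrees of freedom were left. The replicate numbers in the labels pair no samples; the system served as the replicate block.

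Without the replicate block, members called were 2 for iPSC minus MEF (6411 genes), 1 for depleted day 8 (2910), 0 for the day 8 class difference (847), 1 for WT iPSC minus day 8 (2833), 0 for days 1 to 3 (3032) and 0 for days 4 to 6 (1805). The other gene counts were 1 for WT day 8, 5 for the iPSC class difference, 953 for days 7 to 8 and 112 for depleted iPSC minus days 7 to 8. The unpaired exact p of the Mbd3 to Mbd2 ratio was 0.0571.

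With only the stages compared, members and genes called were 0 and 4588 for depleted day 8, 0 and 791 for the day 8 class difference, 2 and 4557 for WT iPSC minus day 8. Members called were 1 for days 1 to 3. Genes called were 0 for WT day 8, 0 for the iPSC class difference and 44 for depleted iPSC minus days 7 to 8.

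Without a filter on low values, genes called were 112 for WT day 8, 124 for the iPSC class difference and 77 for ES minus iPSC. With at least 5 FPKM in 2 libraries they were 22 for the iPSC class difference and 261 for depleted iPSC minus days 7 to 8. A pseudocount of 0.1 gave 0 genes for the iPSC class difference, 5 for ES, and 1 member past the fold in OSK with Myc minus OSK and in siMyc day 3 minus si-Scramble MEF. A pseudocount of 5 gave 1 member for days 1 to 3 and 8 genes for ES. Quantile normalization gave 2 members for WT iPSC minus day 8, 3 genes for ES and 1 member for OSK with Myc minus OSK. Median-ratio scaling gave 1 member for days 1 to 3, 40 genes for the iPSC class difference and 2 for ES. Quantile normalization moved the median change of all genes at depleted day 8 to 0.11, against 0.23 as deposited. Without the Gatad2a-/- day 6 library, ES gave 9 genes.

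Leaving out each system in turn, members called ran from 3 (without WT-2) to 5 for iPSC minus MEF, 1 to 2 for depleted day 8, 0 to 1 for the day 8 class difference, 0 (without WT-2) to 4 for WT iPSC minus day 8, and 0 to 1 for ES minus iPSC. Genes called ran from 4023 to 6131 for depleted day 8, 1 to 322 for WT day 8, 1035 to 4971 for the day 8 class difference, 1 to 2675 for the iPSC class difference, 1689 to 7155 for WT iPSC minus day 8 and 2 to 682 for ES minus iPSC. The ES call was Mbd5 without Mbd3f/-, at 1.34 (adjusted p = 0.0316). Its change of 0.38 turned to -0.58 without WT-1 and to -0.19 without the replicate block. The Mbd4 change at WT day 8 was -0.87 without WT-1 and turned to 0.56 without WT-2. Leaving out 1 si-Scramble MEF library gave 0 to 1 members past the fold for siMyc day 3.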
